A study of Mus musculus with 10 samples.

Results

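The Rab3 GTPases and the proteins that act with them were followed at the transcript level in the dentate gyrus, the part of the hippocampus built from granule neurons. The group holds 8 of the 24982 genes in the count table: the paralogues Rab3a, Rab3b, Rab3c and Rab3d, the related GTPase Rab27b, the effector Rph3a, the GTPase-activating subunit Rab3gap1 and the exchange factor Rab3ip. The table lists them in capitals as RAB3A, RAB3B, RAB3C, RAB3D, RAB27B, RPH3A, RAB3GAP1 and RAB3IP. The members were selected on the wild-type and knockout counts of Rab3c, which had been seen to be lower in the knockout, and were completed by gene name, so the differences between genotypes below are a description of these mice and carry no independent test. All 8 members passed the filter on low counts, which left 14867 genes. The tissue was micro-dissected from 10 male C57BL/6 mice aged 10 weeks, 5 wild types and 5 with a global knockout of Fndc5, the gene of the precursor of irisin, a secreted muscle factor. Each mouse gave 1 poly(A) RNA library, so n = 5 for each genotype. Because RNA came from whole dissected tissue, fewer cells of a type and less RNA per cell cannot be told apart.

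Rab proteins are small GTPases that switch between a GDP-bound and a GTP-bound form and mark membranes for transport. Rab3 proteins sit on synaptic and secretory vesicles, where the GTP-bound form recruits effectors such as rabphilin and RIM before calcium triggers fusion. In dentate granule neurons they belong to the release machinery of the mossy fibre terminals, and Rab3a is known for its part in presynaptic plasticity there.

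The 4 Rab3 paralogues are close in sequence, and their coding sequences are shown first because a read must tell them apart. The stretch of 72 bases below codes for the phosphate-binding loop, the GTP-contacting motif common to Rab proteins, with 24 bases to either side. Each sequence is from the coding strand of the GENCODE M21 transcript ending in 201 (GRCm38), and capitals mark bases that differ from Rab3a.
Rab3a: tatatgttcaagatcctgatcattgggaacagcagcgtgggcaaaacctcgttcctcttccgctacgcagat
Rab3b: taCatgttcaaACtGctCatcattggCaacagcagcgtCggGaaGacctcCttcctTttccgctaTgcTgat
Rab3c: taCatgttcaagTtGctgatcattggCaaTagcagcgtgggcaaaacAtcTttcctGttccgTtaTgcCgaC
Rab3d: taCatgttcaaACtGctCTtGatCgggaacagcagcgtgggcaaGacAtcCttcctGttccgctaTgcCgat
The windows lie at chr8:70755916-70755987 (plus strand, Rab3a), chr4:108890368-108890439 (plus strand, Rab3b), chr13:110260575-110260646 (minus strand, Rab3c) and chr9:21915801-21915872 (minus strand, Rab3d), each within 1 coding exon. Rab3b differed from Rab3a at 13 of these bases, Rab3c at 12 and Rab3d at 14. Over the whole coding sequence, identity between pairs ran from 73.4% (Rab3c and Rab3d) to 76.8% (Rab3b and Rab3d). The longest run of bases shared by any pair was 33, between Rab3b and Rab3d, which is shorter than the reads of 75 bases. No stretch of 75 bases in the annotated transcripts of one paralogue occurred in another.

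Other genes share some of the members' sequence. Of the distinct stretches of 75 bases in its annotated transcripts, Rab3gap1 had 5.6% in transcripts of other genes on the same strand, and Rab3c had 0.753%. Rab3b shares 317 exonic bases, 9% of its exons, with the antisense gene 8030443G20Rik, and Rab3a shares 29 with Mpv17l2 on the opposite strand. Whether the counting used strand is not given in the sources used here, so the levels of Rab3b and Rab3gap1, with 6.99% and 7.47% of their stretches of 75 bases on the opposite strand of other genes' transcripts, are uncertain to that extent. Rab3a lies on chromosome 8 from 70754679 to 70758677, Rab3b on chromosome 4 from 108879063 to 108943324, Rab3c on chromosome 13 from 110054187 to 110280996 and Rab3d on chromosome 9 from 21907491 to 21918192. Rab27b lies on chromosome 18 from 69979131 to 70141605, Rph3a on chromosome 5 from 120940499 to 121010092, Rab3gap1 on chromosome 1 from 127868773 to 127943868 and Rab3ip on chromosome 10 from 116905784 to 116950769 (all GRCm38).

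The libraries held 26226375 to 43802079 counts. The knocked-out gene, Fndc5, was at 75.3 ± 4.60 CPM (counts per 1000000 counts of the library, after TMM scaling) in wild types, against 51.3 ± 4.27 CPM in knockouts (SD, n = 5 each), with every knockout below every wild type, and it was the only 1 of 14867 genes to pass in the edgeR quasi-likelihood test (adjusted p = 0.000495). All 9 dentate granule neuron markers examined were expressed, with a summed level of 1524 to 1781 CPM in wild types and 1682 to 1869 CPM in knockouts. The lowest sums within each genotype were in wild-type mouse 1 and knockout mouse 1. Of the 9 granule markers 7 had higher and 2 lower values in knockouts (median log2 fold change 0.05), with Dsp (0.16) and Lct (0.12) at an unadjusted p under 0.05. The 9 interneuron markers summed to 511.7 to 605.2 CPM in wild types, highest in mouse 1, and 483.3 to 533.5 CPM in knockouts. Of these 8 had lower values in knockouts (median log2 fold change -0.10), with Gad1 (-0.08), Dlx1 (-0.28) and Vip (-0.30) at an unadjusted p under 0.05. Over all genes tested, 49.3% had lower values in knockouts and 6.29% had an unadjusted edgeR p under 0.05. No marker of either list passed over all genes, and the part of these marker differences in the values of Rab3c, Rab27b and Rab3b was not tested. Of 5 choroid plexus markers, Kl was at 29.2 CPM and Ttr at 4.56 CPM in wild types, and Folr1, Clic6 and Kcnj13 did not pass the low-count filter. The list summed to 30.4 to 36.9 CPM in wild types and 31.6 to 39.5 CPM in knockouts, and the 3 anterior pituitary markers summed to at most 9.3 CPM. Markers of CA1 pyramidal neurons summed to 73.9 to 89.4 CPM in wild types and 74.3 to 87.4 CPM in knockouts. Those of CA2 and CA3 pyramidal neurons summed to 277.1 to 305.7 and 289.7 to 327 CPM. Of the CA1 markers Pou3f1 (log2 fold change 0.46, 3.09 CPM in wild types) had an unadjusted edgeR p under 0.05. So had Amigo2 (-0.23) of the CA2 and CA3 list, and neither passed over all genes. Hilar mossy cell markers summed to 45.85 to 70.62 and 33.64 to 70.5 CPM. Astrocyte markers summed to 1365 to 1464 and 1270 to 1463 CPM, and oligodendrocyte markers to 1289 to 1501 and 1275 to 1604 CPM.

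Before genotypes are compared, the members differed widely in abundance. Levels were compared between genes as CPM per kilobase of annotated exon. Rab3a, the main Rab3 of brain synapses, was highest at 195.8 ± 10.1 CPM per kilobase in wild types, followed by Rph3a, which encodes the calcium-binding effector rabphilin, at 163.6 ± 7.32. Rab3c followed at 23.4 ± 0.826 and Rab3ip at 20.5 ± 0.826 CPM per kilobase. The lower levels per kilobase were those of Rab3gap1 (8.26 ± 0.131), Rab3b (6.48 ± 0.553), Rab3d (5.46 ± 0.352) and Rab27b (2.54 ± 0.257). In wild types only Rab3b and Rab3d overlapped among neighbours in this order, at 6.06 to 7.43 and 5.17 to 6.07 CPM per kilobase. In knockouts Rab3c, at 20.2 ± 1.75, and Rab3ip, at 20.9 ± 0.883 CPM per kilobase, also overlapped and their means changed places. The wild-type order stayed the same with the longest transcript as the length. That choice put Rab3gap1 at 22.9 ± 0.363 CPM per kilobase, overlapping Rab3ip, so its level depends on which of its exons are in use.

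**Figure D1:**
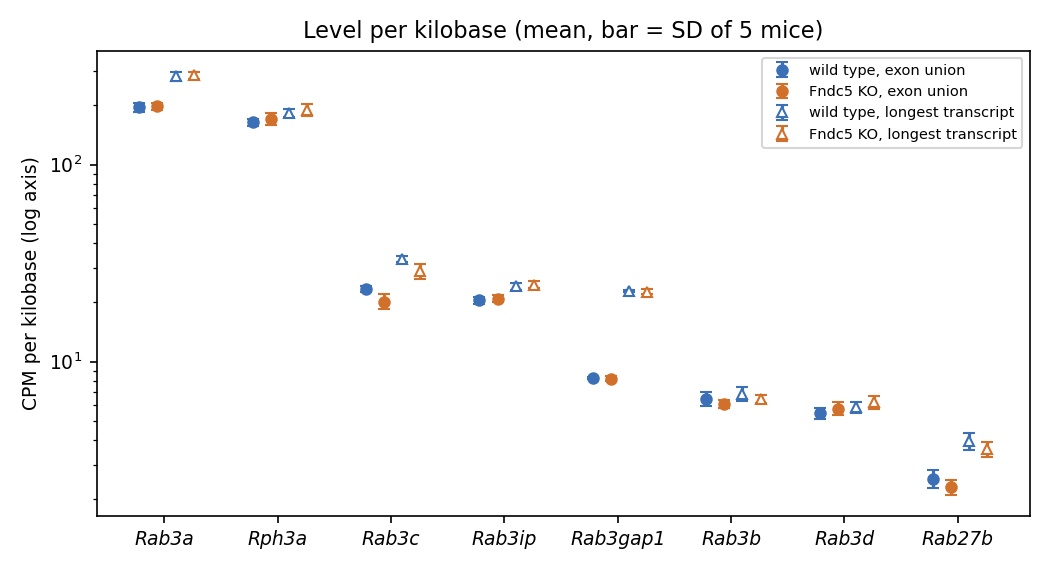
Level of each member in CPM per kilobase on a log axis, as the mean of 5 mice with the SD as a bar, in wild types (blue) and Fndc5 knockouts (orange), with the union of exons (filled circles) or the longest transcript (open triangles) as the length. Rab3a and Rph3a stand at 195.8 and 163.6 CPM per kilobase of exon in wild types and the other members below 25, and Rab3gap1 moves most with the choice of length.

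Among the GTPases, Rab3c showed the widest difference between genotypes. Rab3c is a brain-expressed paralogue of Rab3a on synaptic vesicles. Its level was 274, 297, 286.5, 274.4 and 276.4 CPM in wild-type mice 1 to 5 and 228.6, 279.8, 229.3, 240.3 and 237.7 CPM in knockout mice 1 to 5. Knockout mice 1, 3, 4 and 5 lay below every wild type, and knockout mouse 2 lay within the wild-type range. The means were 282 ± 9.96 and 243 ± 21.1 CPM (SD, n = 5 each), a log2 fold change of -0.21 (SE 0.050, 95% interval -0.32 to -0.11). Knockouts thus held 86.3% of the wild-type level (95% interval 80.2% to 92.9%). Over all genes Rab3c did not pass in edgeR (adjusted p = 0.788), and it had the sixth smallest p. Without knockout mouse 2 the log2 fold change was -0.27 (SE 0.037) and the adjusted p 0.0181. A model that also held mouse number as a block put it at -0.22 (SE 0.034) with an adjusted p of 0.0298, although the labels do not say that mice of 1 number belong together. Both numbers describe the gene that led to the choice of the group. Rab3c transcripts are long and poor in G and C: its exons span 12049 bases, longer than 94.3% of genes tested, and its longest transcript has a GC content of 41.9%. Removing each library's trend with GC content and length gave a log2 fold change of -0.16 (SE 0.034, 95% interval -0.24 to -0.09, adjusted p = 0.488).

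**Figure D2:**
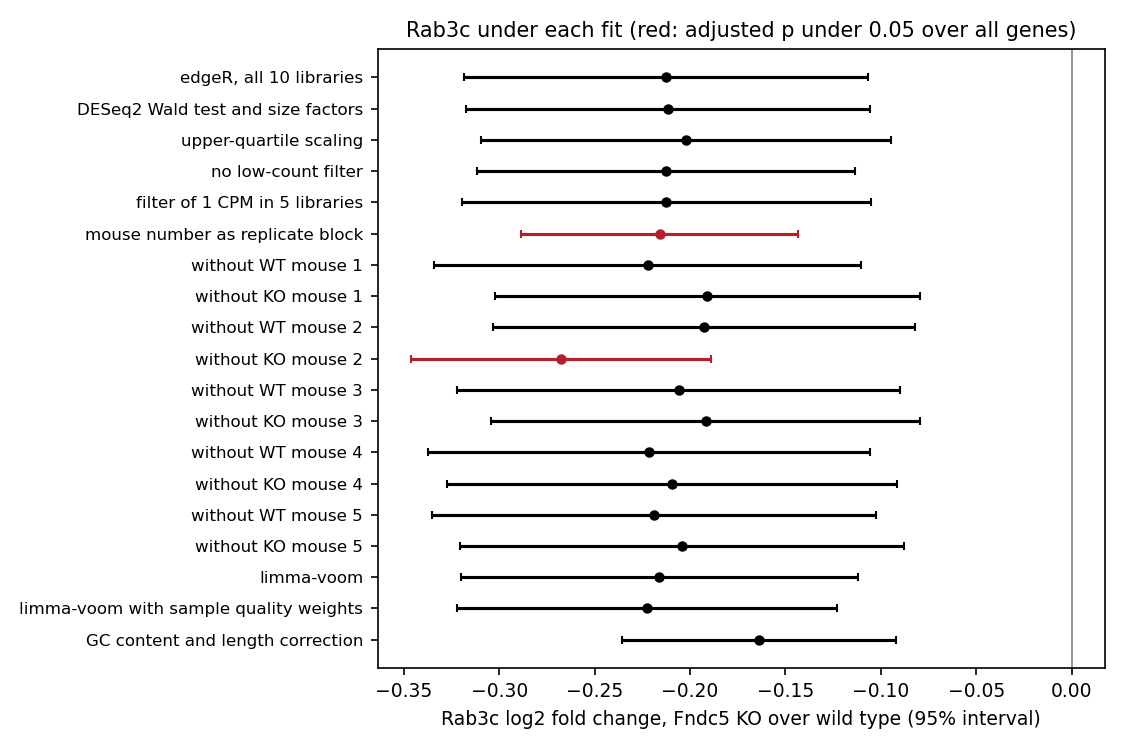
Log2 fold change of Rab3c, knockout over wild type, with its 95% interval (horizontal axis) under the edgeR fit with all libraries and 18 alternatives (vertical axis), where red marks an adjusted p under 0.05. Values lie between -0.27 and -0.16, and the red ones are those with the mouse number as a block and without knockout mouse 2.

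Rab3a, by contrast with Rab3c, had near equal means. Its level in wild-type mice 1 to 5 was 472.3, 418.3, 419, 428 and 442.2 CPM, and in knockout mice 1 to 5 it was 465.8, 420.6, 454.9, 430.7 and 435.5 CPM. The genotypes overlapped almost entirely, with mouse 1 highest and mouse 2 lowest in both. This gave a log2 fold change of 0.02 (SE 0.040, 95% interval -0.07 to 0.10), and it was -0.01 after the GC and length correction. The 4 paralogues together came to 763 ± 19.2 CPM in wild types (746.7 to 794.8) and 730.3 ± 11.7 CPM in knockouts (716 to 745.3). Every knockout sum lay below every wild-type sum, by a narrow margin. Among single genes tested, every knockout lay below every wild type for 0.437%. The sum holds Rab3c, whose difference led to the choice of the group, so nothing is read from this separation. The means of Rab3a and Rab3d were not lower in knockouts. Rab3c made up 36.9 ± 1.77% of these counts in wild types and 33.3 ± 2.61% in knockouts, and Rab3a 57.1 ± 1.76% and 60.5 ± 2.59% (SD, n = 5 each). Per kilobase of exon, the Rab3c share was 10.1 ± 0.700% and 8.78 ± 0.974%. The log2 ratio of Rab3c to the other 3 paralogues was lower by 0.23 in knockouts (-0.77 ± 0.110 and -1.01 ± 0.167).

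The other Rab3 paralogues were sparse. Rab3b, found in secretory cells and in some neurons, was at 26.19, 21.34, 21.97, 21.86 and 22.74 CPM in wild-type mice 1 to 5 and at 21.99, 21.16, 21.81, 20.01 and 22.55 CPM in knockout mice 1 to 5. Wild-type mouse 1 stood above the rest, and the genotypes otherwise overlapped. Its log2 fold change was -0.09 (SE 0.060, 95% interval -0.21 to 0.04), and -0.03 without wild-type mouse 1. That mouse also had the highest interneuron marker sum (605.2 CPM), and the part of interneuron content in the Rab3b value was not tested. Rab3d, best known from the granules of exocrine cells, was at 22.29, 25.46, 21.7, 22.44 and 22.55 CPM in wild-type mice 1 to 5 and at 21.64, 23.72, 23.99, 24.99 and 26.75 CPM in knockout mice 1 to 5. Knockout mice 2 to 5 were above 4 of the wild types, and wild-type mouse 2 lay among them. Its log2 fold change was 0.08 (SE 0.061, 95% interval -0.05 to 0.21).

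Rab27b, a GTPase that docks secretory and synaptic vesicles and shares effectors with Rab3, had the second largest difference in size with all libraries and no correction. Its level was 23.08, 30.24, 27.77, 28.74 and 26.08 CPM in wild-type mice 1 to 5 and 22.63, 26.74, 22.96, 27.08 and 23.98 CPM in knockout mice 1 to 5. All 5 knockouts were below the wild-type mean and 2 were below every wild type, wild-type mouse 1 being the low one of its group. This gave a log2 fold change of -0.14 (SE 0.073, 95% interval -0.29 to 0.01). It was -0.06 (SE 0.057) after the GC and length correction, and the GC content of its longest transcript, 37.9%, is lower than that of all but 1.85% of genes tested. After that correction Rab3b (-0.09) and Rab3d (0.06) differed more, and so they did without wild-type mouse 2, where Rab27b was at -0.10, Rab3b at -0.11 and Rab3d at 0.12. Rab27b made up 58.7 ± 2.68% of the counts of Rab27a and Rab27b together in wild types and 55.9 ± 1.80% in knockouts.

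Of the proteins that act on or with the GTPases, all 3 measured had a 95% interval that included 0. Rph3a was at 741, 746.4, 776.4, 808.8 and 722.3 CPM in wild-type mice 1 to 5 and at 787, 702.3, 821.3, 791.3 and 846.3 CPM in knockout mice 1 to 5. Knockout mice 3 and 5 were above every wild type and knockout mouse 2 was below all of them, for a log2 fold change of 0.06 (SE 0.046, 95% interval -0.04 to 0.15). Rab3gap1 encodes the catalytic subunit of the complex that ends Rab3 signalling by GTP hydrolysis. It varied least of the group, with a coefficient of variation of 1.59% in wild types and 2.77% in knockouts, against medians of 7.37% and 6.62% over all genes tested. Its level was 97.0 ± 1.54 and 96.1 ± 2.66 CPM, between 95.5 and 98.8 and between 92.6 and 99.3 CPM (log2 fold change -0.01, SE 0.034, 95% interval -0.08 to 0.06). Its partner subunit Rab3gap2 had a log2 fold change of -0.02 (SE 0.035). Rab3ip, also called Rabin8, was named for binding Rab3 and acts as an exchange factor for Rab8. It was at 65.0 ± 2.62 CPM in wild types (62.6 to 69.5, highest in mouse 1) and 66.2 ± 2.80 CPM in knockouts (62.4 to 69.4), with a log2 fold change of 0.03 (SE 0.042, 95% interval -0.06 to 0.12).

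**Figure D3:**
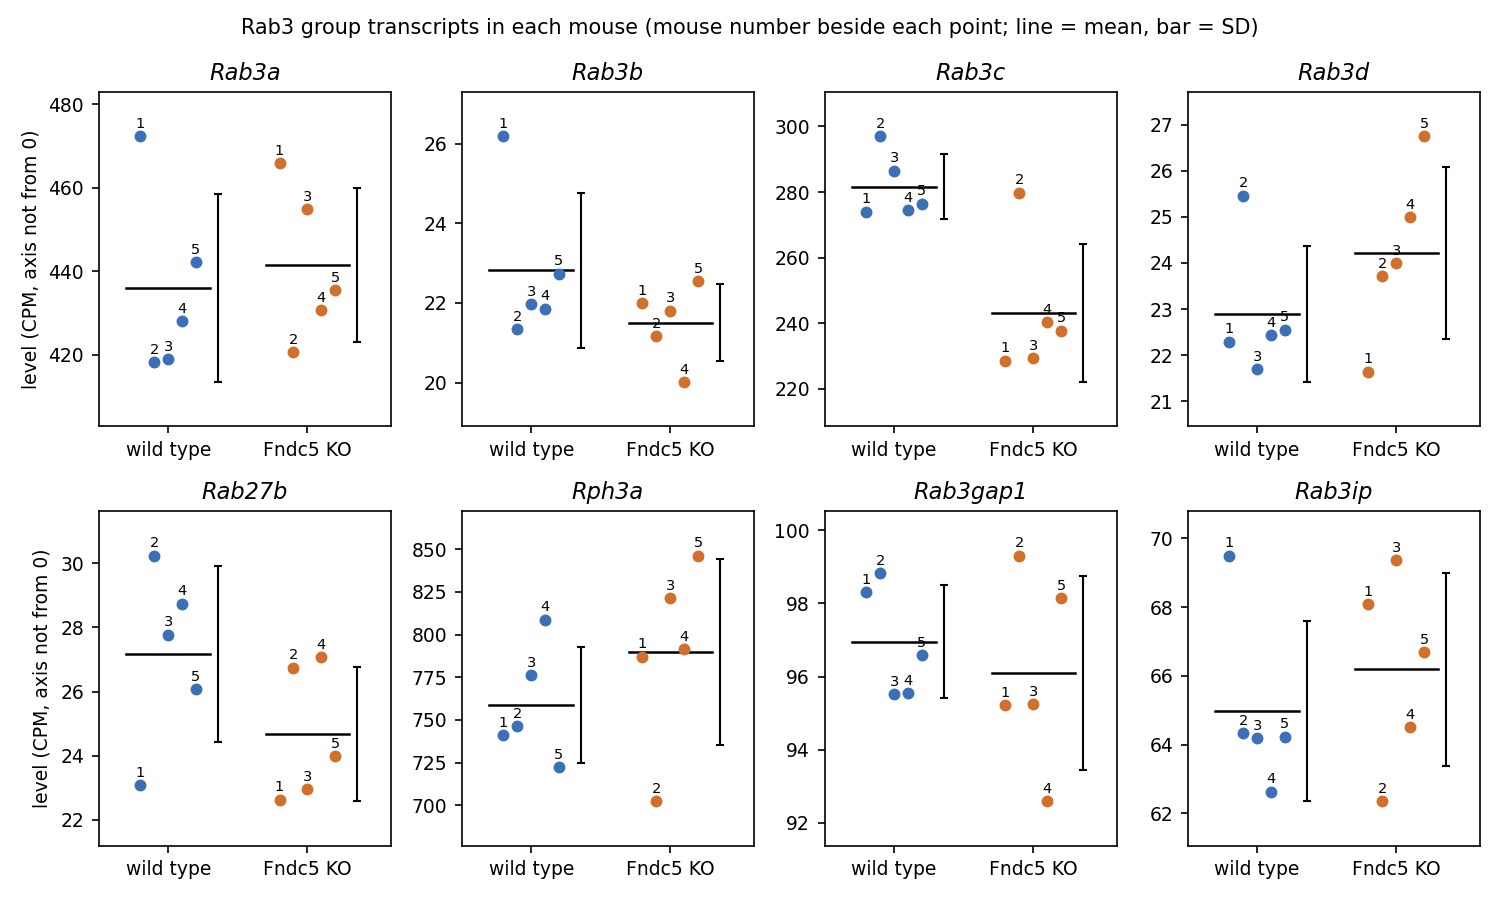
CPM of each member (vertical axes, which do not start at 0) in each wild-type (blue) and knockout (orange) mouse, with the mouse number beside each point, the mean as a line and the SD as a bar. Rab3c is the panel in which 4 knockouts lie below every wild type, with knockout mouse 2 at 279.8 CPM.

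Across the group, 4 members had lower and 4 had higher values in knockouts, with a median log2 fold change of 0.003 beside 0.002 for all 14867 genes, of which 49.3% were lower. In the edgeR test 0 of 8 members passed over all genes, where 0.00673% of genes passed. At an unadjusted p under 0.05 there was 1 member, Rab3c, against 6.29% of all genes. For 0 members did every knockout lie below every wild type, which held for 0.437% of genes, and at least 4 knockouts did so for 1 member, Rab3c, and for 2.8% of genes. Since this contrast led to the choice of the members, nothing is read from these shares. The 95% intervals bound the difference of the other 7 members: that of Rab27b reached -0.29 on the log2 scale, and the other 6 lay between -0.21 and 0.21.

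**Figure D4:**
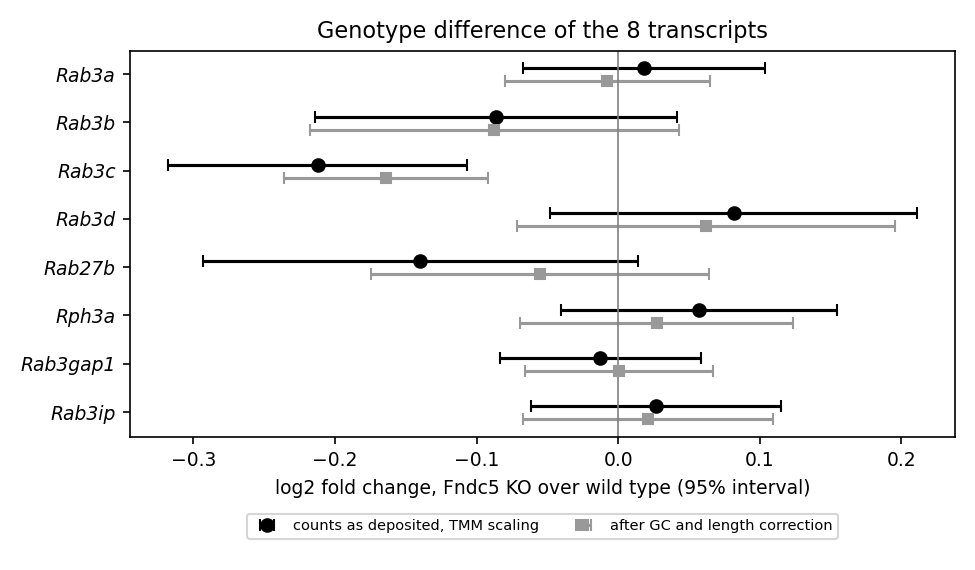
Log2 fold change of the 8 members, knockout over wild type (horizontal axis), with 95% intervals, from the counts as deposited (black circles) and after correction for GC content and length (grey squares). The interval of Rab3c lies below 0 in both, and the other 7 include 0 in both.

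Some members also varied with, or opposite to, one another from mouse to mouse within a genotype. This spread is the error of the comparison of genotypes, but how members covary did not enter it. Log2 CPM was centred on each genotype's mean and correlated over the 10 mice for all 28 pairs of members. Permutation p-values were adjusted over the pairs, with the 10 mice taken as unrelated. Yet mouse 1 was highest for Rab3a and lowest for Rab27b in both genotypes. Over all genes tested, same-numbered mice correlated at 0.00901 to 0.209. The shuffling made no allowance for this likeness, so a shared mouse number can count more than once. Centred values were shuffled freely over the mice, with no allowance for the genotype means removed, so these p-values are somewhat too small. By Pearson r 6 pairs passed on these p-values, all among the 4 genes Rab3a, Rab3b, Rab27b and Rab3ip. Calls closer to the threshold, such as Rab3a with Rab3b and Rab3b with Rab3ip, are therefore not secure. The weakest had an r of 0.76 in size, which 3.06% of all pairs of genes tested reached. The 6 pairs share genes and are not independent. Rab27b ran opposite to Rab3a (Pearson r = -0.93, permutation p = 9e-05, adjusted p = 0.00252; Spearman rho = -0.92, permutation p = 0.00049, adjusted p = 0.00728). Mice with more Rab3a had less Rab27b, and r was -0.84 without knockout mouse 1 and wild-type mouse 1, the 2 farthest from the median of Rab3a. Rab27b ran opposite to Rab3b as well (r = -0.90, permutation p = 0.00024, adjusted p = 0.00336; rho = -0.88, permutation p = 0.00171, adjusted p = 0.016), with r = -0.81 without wild-type mouse 1 and knockout mouse 4. It did so with Rab3ip too (r = -0.87, permutation p = 0.00095, adjusted p = 0.00887; rho = -0.75, permutation p = 0.0169, adjusted p = 0.0675), with r = -0.89 without wild-type mice 1 and 2. Rab3a, Rab3b and Rab3ip varied in the same direction over mice. For Rab3a and Rab3ip r was 0.86 (permutation p = 0.00143, adjusted p = 0.01; rho = 0.79, permutation p = 0.00871, adjusted p = 0.0488; r = 0.73 without the 2 farthest mice). For Rab3a and Rab3b r was 0.80 (permutation p = 0.00495, adjusted p = 0.0277; rho = 0.75, permutation p = 0.0169, adjusted p = 0.0675; r = 0.53 without the 2 farthest mice). For Rab3b and Rab3ip r was 0.76 (permutation p = 0.0102, adjusted p = 0.0475; rho = 0.72, permutation p = 0.0233, adjusted p = 0.0816; r = 0.54 without the 2 farthest mice). Wild-type mouse 1 was at the high end of all 3 and at the low end of Rab27b, and it had the lowest granule neuron marker sum (1524 CPM) and the highest interneuron marker sum of its genotype. The part of cell composition in these correlations was not tested.

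These 6 pairs also passed after the GC and length correction, with r between -0.89 and -0.84 for the 3 opposite pairs and between 0.80 and 0.89 for the 3 like ones. That correction, which was added after seeing the data, brought in 3 pairs of Rab3gap1. These were with Rab3b (r = 0.75), Rab3ip (r = 0.78) and Rab27b (r = -0.79). Without the correction their r was 0.39, -0.003 and -0.07, and none passed. The share of all gene pairs that reach such values was not computed on corrected levels. The p-values behind these calls, and those of Rab3c below, share the limits of the permutation given above. Rab3c, in turn, passed with no other member by Pearson r. Its r with Rab3a was -0.68 (permutation p = 0.0245, adjusted p = 0.0981), with a rho of -0.92 that passed (permutation p = 0.00052, adjusted p = 0.00728) and r = -0.77 without the 2 farthest mice. Its rho with Rab27b also passed (0.81, permutation p = 0.00735, adjusted p = 0.0488; r = 0.62, permutation p = 0.045, adjusted p = 0.126; r = 0.53 without the 2 farthest mice). After the GC and length correction the r of Rab3c was -0.32 with Rab3a and 0.01 with Rab27b.

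**Figure D5:**
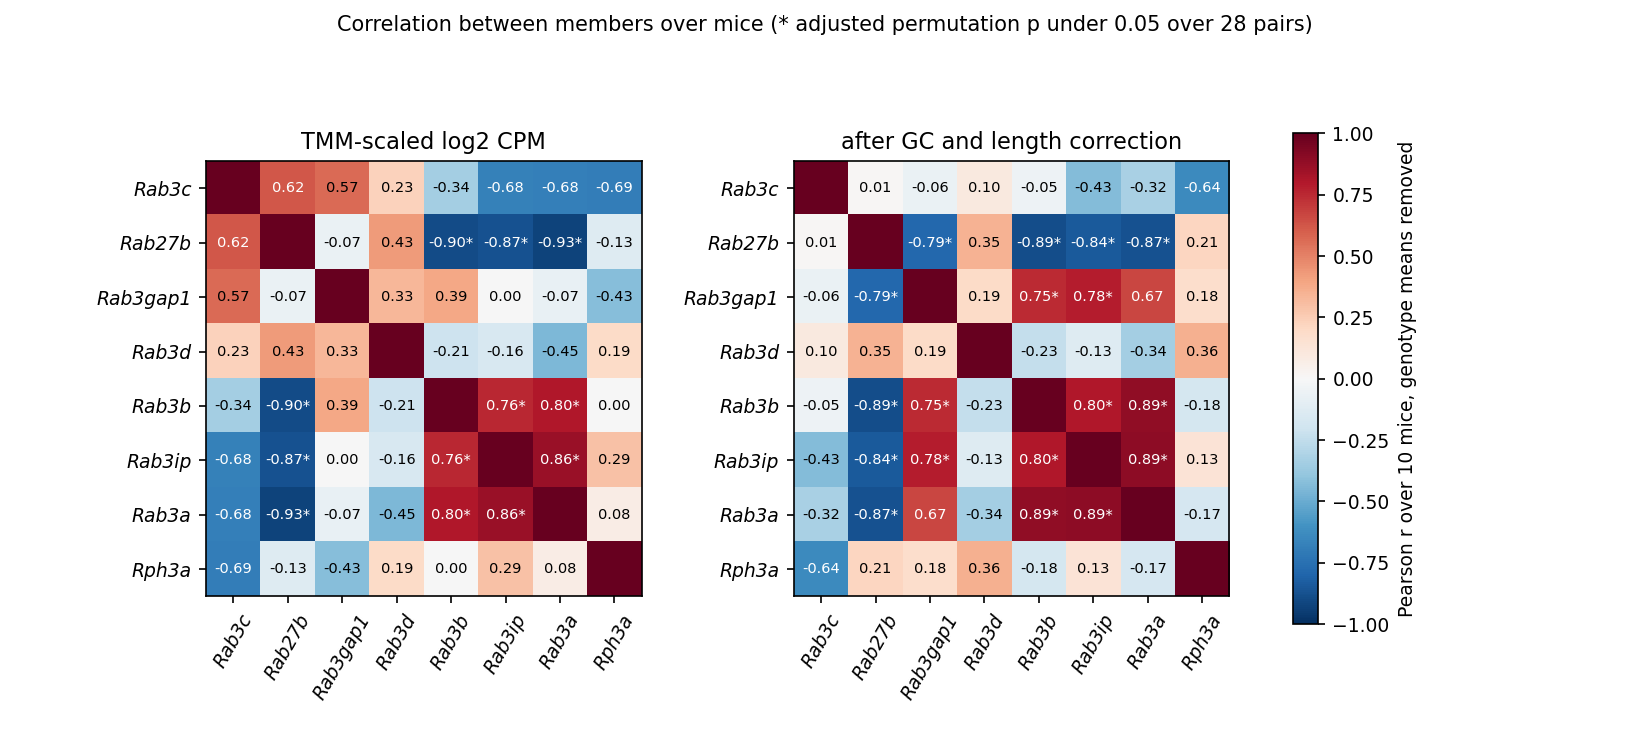
Pearson r between members over 10 mice with genotype means removed (colour and printed value), from TMM-scaled log2 CPM on the left and after GC and length correction on the right, where an asterisk marks an adjusted permutation p under 0.05 over the 28 pairs. Rab3a, Rab3b and Rab3ip form a block of high r that is opposite to Rab27b in both panels, and the r of Rab3c with Rab27b goes from 0.62 to 0.01.

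The genes whose levels over the 10 mice were most like those of Rab3c, among 9558 named genes of at least 10 CPM, were Etnk1 (Pearson r of log2 CPM 0.98), Virma (0.92), Cdk14 (0.92), Usp9x (0.92) and Fem1c (0.92). They were chosen as the highest values, so no p is given. With genotype means removed their r was 0.81 to 0.97, and without knockout mouse 2 it was 0.92 to 0.97. The exons of these 5 genes span 5726 to 18877 bases, beside 12049 for Rab3c. Their GC content was 40.0% to 44.7%, beside 41.9% for Rab3c. The likeness was not computed after the GC and length correction, so the part of GC content and length in it was not tested. Of the members, Rab27b was the most like Rab3c (r = 0.72, rank 433), and Rph3a was the least (r = -0.66, and also -0.66 without knockout mouse 2). With genotype means removed the r of Rab3c with Rph3a was -0.69. This centred r was -0.21 without knockout mouse 2 and -0.02 without knockout mouse 2 and wild-type mouse 2, so it rests largely on knockout mouse 2.

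The wider Rab3 pathway was described by 4 lists, in which 0 genes passed over all genes tested in either direction. Of 11 Rab3 and Rab27 effectors, 6 had lower and 5 higher values (median log2 fold change -0.06). Rims2, a RIM scaffold that links Rab3 on vesicles to the active zone, was at -0.08 (SE 0.043). Sytl2 (0.12, SE 0.062), Sytl1 (-0.36, SE 0.24) and Sytl4 (-0.19, SE 0.13) encode synaptotagmin-like effectors of Rab27. Of 11 genes of the Rab cycle, 8 had lower and 3 higher values (median -0.03). They include Chm (-0.14, SE 0.060) and Chml (-0.11, SE 0.12), the escort proteins for prenylation, Gdi2 (-0.06, SE 0.038), which extracts GDP-bound Rabs from membranes, and Rab3il1 (0.07, SE 0.079), a relative of Rab3ip.

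Of 9 other secretory and Rab8-pathway GTPases, 5 had lower and 4 higher values (median -0.01). Rab26, a vesicle GTPase, was at 0.14 (SE 0.060), the recycling endosome gene Rab11a at -0.13 (SE 0.057), Rab10 at -0.06 (SE 0.036) and Rab8b at -0.08 (SE 0.065). Of 24 genes of the active zone and fusion machinery, 18 had lower and 6 higher values (median -0.02). Cadps, which primes dense-core vesicles, had means of 306.3 ± 15.8 CPM and 281.5 ± 11.5 CPM, for a difference of -0.12 on the log2 scale (SE 0.041, edgeR adjusted p = 0.788). The SNARE gene Snap25 was at -0.09 (SE 0.046), the active zone scaffold Erc1 at -0.09 (SE 0.054) and the complexin gene Cplx2 at 0.05 (SE 0.030). At an unadjusted p under 0.05 these lists held Chm, Rab26, Rab11a and Cadps, which is 7.27% of their 55 genes tested, beside 6.29% of all genes.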

How the data were processed

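RNA was sequenced from the dentate gyrus of 10 mice. Per the labels' protocols, stranded poly(A) libraries were read single-end over 75 bases. The deposited values are raw read counts per gene symbol, without normalization. The submitters' processing notes name STAR 2.5.1b, Cufflinks 2.2.1 and mm10, with no role or order. The treatment of reads with several matches is not given in the sources used here. Groups and mouse numbers came from the sample titles. The edgeR p-values set the difference between genotypes against the spread between mice. Each library counted as 1 replicate, since any 2 of the same genotype differed beyond counting error (chi-square per degree of freedom at least 4.63).

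Genes were filtered with filterByExpr, scaled by TMM and compared with edgeR 4.0.16 (glmQLFit, glmQLFTest) in R 4.3.3, with Benjamini-Hochberg adjustment over 14867 genes and a threshold of 0.05. The steps were also run on simulated counts, whose outcome is not given here and is not used as support. Log2 CPM used a prior count of 2. Correlations used 100000 permutations, two-sided. Lengths, coordinates and coding sequences are from GENCODE M21 (GRCm38, the assembly of mm10). Alternatives were DESeq2 1.42.0, limma 3.58.1 voom with and without sample weights, upper-quartile scaling, no filter, 1 CPM in 5 libraries, a block for mouse number, leaving out single libraries, and a spline correction (4 degrees of freedom each) for GC content and length, known for 14723 genes.

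The members and lists were chosen with earlier results of these data known. Genes named beyond the members are Fndc5, the 4 of each pathway list with the smallest p, and the 5 most correlated with Rab3c; Rab27a, Rab3gap2, the genes overlapping members and the cell type markers were named after their values were seen.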

Additional observations from a re-analysis of the deposited data

Results flagged for a closer look

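In 20 groups of 5 values, 4 had 1 mouse far from the other 4, where about 1 is expected by chance. Rab3c was at 279.8 CPM in knockout mouse 2 and at 228.6 to 240.3 CPM in the other knockouts. Wild-type mouse 1 had 26.2 CPM of Rab3b, the other wild types 21.3 to 22.7 CPM. The same mouse had 69.5 CPM of Rab3ip, the others 62.6 to 64.3 CPM. Rab3d was at 25.5 CPM in wild-type mouse 2 and at 21.7 to 22.6 CPM in the other wild types.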

How the results depend on the processing

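Rab3c had lower values in knockouts in all 20 alternatives, with log2 fold changes of -0.27 to -0.16 (range -0.27 to -0.19 with single libraries left out). It passed over all genes in 3 of them: with the mouse number as a replicate block (-0.22, adjusted p = 0.0298), without knockout mouse 2 (-0.27, adjusted p = 0.0181) and with both together, which was added after seeing the data (-0.25, adjusted p = 0.0172). The last joins the settings that had already passed and leaves out the only knockout within the wild-type range, so it adds no support. Rab3c was chosen on this contrast, so none of these p-values is an independent test. The adjusted p lay between 0.0172 and 0.999 over these alternatives, and the cause was not tested. No other member passed in any alternative, and the block changed no other member's call. The number of genes past the threshold was 1, and 3 with DESeq2, 8 with the block and 1 to 3 when any 1 library was dropped (3 without wild-type mouse 1, 2 without knockout mouse 2). Same-numbered mice correlated at 0.209, 0.204, 0.108, 0.00901 and 0.0282. Among the 5 mice of the other genotype, 6 of 10 mice correlated best with their own number. The library labels run in order of mouse number, wild type before knockout within each. Pairing by number was taken only if every pair was above 0.1 or the labels stated it, so the mice were compared unpaired, and whether numbers mark a shared litter or day was not tested. Set against the wild type of its own number, the knockout was lower in 5 of 5 pairs for Rab3c, Rab27b and Rab3b. The same held for 5.21% of all genes tested. Some Rab3b differences were small, as at number 2 (21.16 CPM in the knockout, 21.34 CPM in the wild type). This contrast led to the choice of the members, so nothing is read from these counts of pairs. Signs near 0 turned for Rab3a after GC and length correction (-0.0076) and without knockout mouse 1 (-0.0017, range -0.0017 to 0.049 over single libraries left out), and for Rab3gap1 after that correction (0.00058). The pairs of members past the threshold numbered 6, against 3 without centring on genotype and 9 with the GC and length correction added after seeing the data. Without centring, Rab3b kept no pair. The p-values with centring are somewhat too small, since the permutation made no allowance for the genotype means removed. It made none for likeness between same-numbered mice either. The wild-type order of levels per kilobase was the same in 6 alternatives. The number of mice limits precision: the median 95% interval over all genes had a half-width of 0.14 (log2).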
